A study of Mus musculus with 12 samples.

Results

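The genes described here are 31 chaperones, folding enzymes, degradation factors, translocon subunits and stress sensors of the endoplasmic reticulum (ER), listed by name as an ER chaperone and unfolded protein response module. Every probe on the array that carries one of these gene symbols was taken, whatever its signal. The array symbols gave 51 probes of 29 genes, and the older names Armet and Myd116, matched by Entrez number, added 1 probe each for Manf and Ppp1r15a, so that 53 of 45281 probes and all 31 genes were found, out of 30869 genes on the array. The RNA came from VC1, a lung adenocarcinoma cell line from a female mouse of the A/J strain, kept as 1 line in culture. The cells received 0.05 µM CDDO-Im, 0.1 µM CDDO-Me, 15 µM DMF or the solvent DMSO for 6 h, with 3 arrays in each of the 4 groups and no group left without solvent. Both CDDO compounds derive from one synthetic triterpenoid, CDDO-Im as its imidazolide and CDDO-Me as its methyl ester, while DMF stands for dimethyl fumarate. The labels do not say that the 3 samples of a group came from separate cultures, so the p-values below measure the spread between these samples, which may be technical.

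Secreted and membrane proteins fold in the ER with the help of chaperones and of enzymes that form disulfide bonds. When unfolded protein builds up there, the sensors IRE1 (gene Ern1), PERK (Eif2ak3) and ATF6 start the unfolded protein response: IRE1 splices the mRNA of Xbp1, PERK slows translation and allows the transcription factor ATF4 to be made, and ATF6 is cut to release a transcription factor. The targets raise folding capacity and ER-associated degradation (ERAD), by which misfolded proteins are sent to the proteasome. All 3 compounds react with cysteine thiols and are best known as activators of NRF2, and of the NRF2 targets measured as a check of treatment, Hmox1, heme oxygenase 1, was higher by 5.15 ± 0.14 with CDDO-Im, 4.32 ± 0.13 with CDDO-Me and 1.85 ± 0.13 with DMF (log2 difference from DMSO ± SE, 10 arrays). With all 12 arrays Hmox1 differed by 4.41 ± 0.39, 3.8 ± 0.4 and 1.31 ± 0.4 (limma adjusted p = 0.000375, 0.00127 and 0.513), so that the DMF call is lost there. Of 8 NRF2 targets tested, 7, 6 and 5 were called higher with 12 arrays and 8, 8 and 7 with 10.

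Many genes of the response carry the ER stress response element (ERSE), and the promoters of 4 members are printed as examples. Of these, Hspa5 and Hsp90b1 hold ERSE, Herpud1 holds ERSE-II and an amino acid response element, and Dnajb9 holds none of the elements defined below. The RefSeq promoter table (build GRCm38.p6, windows of 250 bases before and 50 after the annotated start) held 27 of the 31 genes; Manf, Derl1, Atf6 and Hyou1 were not matched. The searched letters, on both strands, were CCAAT and CCACG with 9 bases of any kind between them for ERSE, ATTGG and CCACG with 1 base between them for ERSE-II, TGACGTGG for the unfolded protein response element and TTGCATCA for an amino acid response element. The 250 bases before the start are given 5′ to 3′ on the strand of the gene, with matches in capitals, at chr2:34771840-34772089 (plus strand) for Hspa5, chr10:86705445-86705694 (minus strand) for Hsp90b1, chr8:94386179-94386428 (plus strand) for Herpud1 and chr12:44210069-44210318 (minus strand) for Dnajb9. An ERSE on the opposite strand, as in the second match of Hsp90b1, reads as its reverse complement.
Hspa5: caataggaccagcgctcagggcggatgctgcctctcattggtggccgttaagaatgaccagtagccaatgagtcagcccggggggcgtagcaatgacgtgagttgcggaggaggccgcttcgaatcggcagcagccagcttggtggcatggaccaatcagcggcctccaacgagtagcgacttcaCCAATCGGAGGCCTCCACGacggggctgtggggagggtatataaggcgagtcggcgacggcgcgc
Hsp90b1: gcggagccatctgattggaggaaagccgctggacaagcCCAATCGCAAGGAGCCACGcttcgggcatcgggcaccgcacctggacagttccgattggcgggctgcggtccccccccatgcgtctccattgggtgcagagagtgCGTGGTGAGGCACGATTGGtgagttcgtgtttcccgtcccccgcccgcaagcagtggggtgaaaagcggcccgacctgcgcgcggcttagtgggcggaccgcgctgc
Herpud1: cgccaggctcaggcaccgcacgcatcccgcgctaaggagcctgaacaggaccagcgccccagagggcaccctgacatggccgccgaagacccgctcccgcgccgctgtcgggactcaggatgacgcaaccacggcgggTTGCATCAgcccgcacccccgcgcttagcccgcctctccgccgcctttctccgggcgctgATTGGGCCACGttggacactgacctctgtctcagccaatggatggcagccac
Dnajb9: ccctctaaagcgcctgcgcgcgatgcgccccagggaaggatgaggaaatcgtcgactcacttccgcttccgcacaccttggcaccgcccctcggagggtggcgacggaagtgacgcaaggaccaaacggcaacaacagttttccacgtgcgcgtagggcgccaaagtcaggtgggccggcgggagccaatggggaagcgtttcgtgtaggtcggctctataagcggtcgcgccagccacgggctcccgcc

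ERSE was found in 9 of the 27 genes (33.3%), against 39 of 32851 promoter windows in the table (0.119%). The 9 were Hspa5, Hsp90b1, Calr, Canx, Pdia6, Dnajc3, Creld2, Syvn1 and Derl3. In Hspa5 it ran from position -65 to -47, counted from the first transcribed base as 1 with no 0, and Hsp90b1 held it at -212 to -194 and, reversed, at -107 to -89. ERSE-II was found in Herpud1 (-52 to -42) and in Dnajb11 (8 to 18), which is 7.41% of the 27 genes and 0.0365% of all windows. Herpud1 also held the amino acid response element, at -112 to -105, a match present in 0.895% of all windows and in no other member. No member window held TGACGTGG, which 0.676% of all windows hold. The CCAAT box, which the ERSE letters contain and the ERSE-II letters contain reversed, was present in 20 of the 27 genes (74.1%), against 37.4% of all windows. Dnajb9, Sel1l and Xbp1 held none of the first 4 motifs in these windows. The matches are descriptions of letters and not measured sites.

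**Figure D1:**
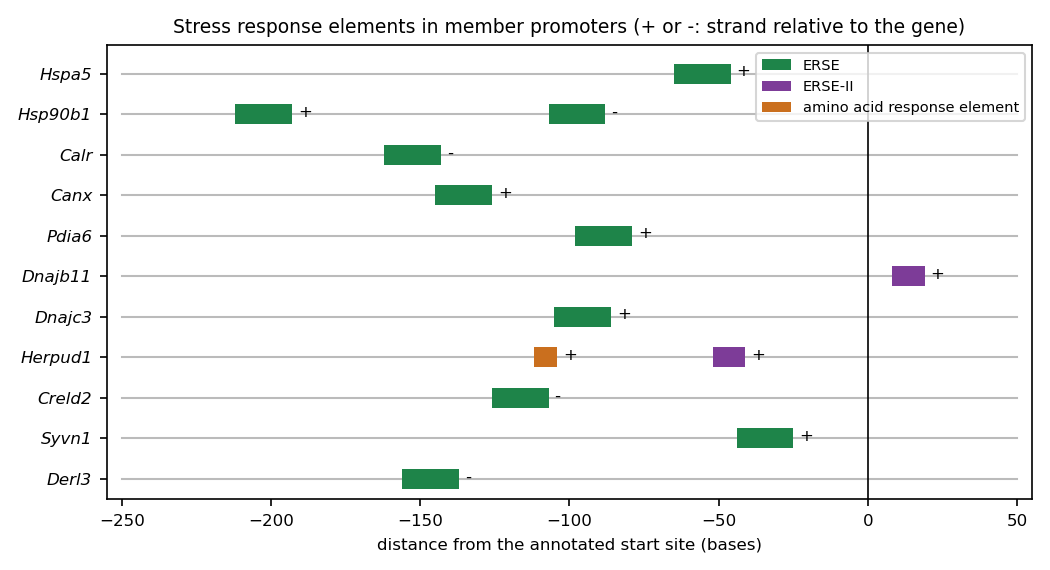
Positions of ERSE, ERSE-II and amino acid response element matches in the 11 member promoters that hold one, as distance in bases from the annotated start site (vertical line), with the strand of each match relative to the gene. ERSE matches lie between -212 and -26, and the ERSE-II of Dnajb11 lies after the start.

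Each value is the fluorescence of a bead type that binds 1 transcript, background-corrected and quantile normalized across all 12 arrays, and is given as log2, so a difference of 1 is a 2-fold change. Arrays have no sequencing depth, and their number limits the precision. Probes with a detection p under 0.05 on at least 3 arrays were tested, and a gene was represented by its tested probe with the highest mean signal. That left 25 of the 31 genes with 37 probes. Canx, the membrane-bound lectin chaperone calnexin, Manf, Eif2ak3, Derl1, Derl3 and Ero1l had no tested probe, and 14 of the 53 probes were detected on no array, so nothing is said about changes in those 6 genes. In RNA from whole cultures, fewer cells of a type and less RNA per cell cannot be told apart.

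A pair of arrays stood apart from the rest. The mean raw intensity was 457.2 on CDDO-Im replicate 2 and 439.6 on DMSO replicate 1, against 551.6 to 683.7 on the other 10, and their median correlation with the other arrays was 0.936 and 0.915, against 0.99 to 0.995. CDDO-Im replicate 2 also had the fewest detected probes, 32.7% against 38.1% to 41.3% on the other 11. Of 16 lung epithelial markers, 7 were detected on every array, among them Nkx2-1, Krt8 and Cdh1, while Epcam, Sftpa1, Sftpc, Sftpd and Lamp3 were detected on none. Vim was the 1 of 10 fibroblast markers and Cd14 the 1 of 9 leukocyte markers detected on every array, none of 8 endothelial markers was, and Ptprc, Pecam1 and Col3a1 were detected on no array. The summed leukocyte markers were 1027 to 1482 with CDDO-Im, 903 to 1017 with CDDO-Me and 1385 to 1398 with DMF, against 1734 to 3097 with DMSO (linear signal units). Of the single markers, the fibroblast marker Pdgfra was called higher in all 3 comparisons with 10 arrays (1.67, 1.32 and 0.63 with CDDO-Im, CDDO-Me and DMF) and with both triterpenoids with 12 (1.8 and 1.3). Foxa2, a lung epithelial transcription factor, was called in the same comparisons (1.25, 1.36 and 0.6 with 10 arrays, and 1.32 and 1.43 with 12). The leukocyte marker Cd14 was called lower in all 3 with 10 arrays (-0.99, -1.19 and -0.48) and with CDDO-Me with 12 (-1.43), and Muc1, an epithelial mucin, with CDDO-Me with 10 (-0.94). The part of these markers in the results below was not tested.

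The members leaned low on CDDO-Im replicate 2, with some above, and scattered in both directions on DMSO replicate 1. On CDDO-Im replicate 2, 17 of the 25 tested members were below the mean of the other arrays of the group, 11 of them by more than 0.5 and 4 above it by more than 0.5, with a median deviation of -0.38, against 0.11 over all genes tested. On DMSO replicate 1, 14 of 25 were below, 11 by more than 0.5, but 8 were above by more than 0.5, and the median deviation was -0.02, against -0.03 over all genes. The share under -0.5 was 44% of the members on each array, against 21.1% of all genes on CDDO-Im replicate 2 and 30.3% on DMSO replicate 1. Of all 13441 genes, 5848 were below the mean on CDDO-Im replicate 2 and 6901 on DMSO replicate 1. Above it by more than 0.5 were 3973 and 3433 genes. Sel1l (-2.7), Dnajb9 (-2.25), Ern1 (-1.8) and Syvn1 (-1.61) were far low on DMSO replicate 1, where Ppp1r15a (2.18), Sdf2l1 (1.33) and Edem1 (0.91) were high. Edem1 (-2.53), Calr (-1.69), Pdia3 (-1.42) and Hyou1 (-1.42) were far low on CDDO-Im replicate 2, and Ppp1r15a was high there too (1.55). The counts are given with all 12 arrays, which is the planned test, and with the 10 arrays left after these were removed and the rest normalized again. The 10-array fit has 2 arrays each for DMSO and CDDO-Im. These arrays were set aside with the members' own values known, so p-values with 10 arrays may understate the spread. Since no member was called with 12 arrays, single members are described mainly with 10, with the 12-array values beside those that were called.

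**Figure D2:**
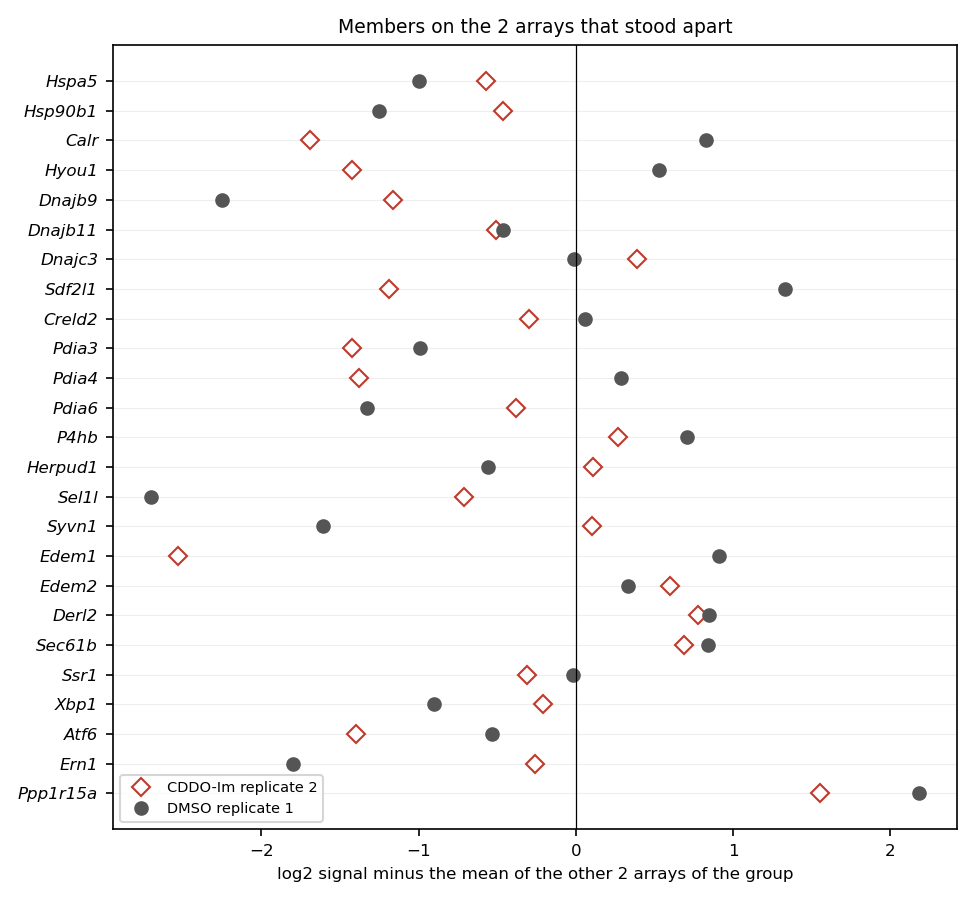
Log2 signal of the 25 tested members on CDDO-Im replicate 2 (open diamonds) and DMSO replicate 1 (filled circles), minus the mean of the other 2 arrays of the same group. The points run from -2.7 to 2.18 and lie on both sides of 0 on each array.

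With all 12 arrays no member was called against DMSO. In limma's test with group and chip as terms and Benjamini-Hochberg adjustment over 19211 probes, 0 of 25 members were called at an adjusted p under 0.05 with CDDO-Im, where 1.29% of all genes tested were called higher and 0.35% lower, 0 with CDDO-Me (0.856% and 0.312%) and 0 with DMF (0.312% and 0.0149%). At an unadjusted p under 0.05, 1 member was higher and 1 lower with CDDO-Im, 3 higher with CDDO-Me and 4 higher with DMF. The share of all genes under that unadjusted threshold was not counted, here or below, so these counts have no background beside them. The median log2 difference of the 25 members was 0.03 with CDDO-Im, -0.01 with CDDO-Me and 0.15 with DMF, against 0.06, 0 and 0 over all genes. The median SE of a member was 0.31, 0.319 and 0.319, so that single members with differences near 0.5 could not be told from 0.

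With 10 arrays the median SE of a member was 0.0949 for CDDO-Im and 0.0873 for CDDO-Me and for DMF, and a few members were called. Dnajb9 and Sel1l were higher with CDDO-Im, which is 8% of the members, against 5.27% of all genes called higher and 4.27% lower. Dnajb9, Herpud1 and Sel1l were higher and Ern1 was lower with CDDO-Me, 12% and 4% of the members against 5.11% and 4.73% of all genes. Dnajb9, Herpud1, Sel1l and Xbp1 were higher with DMF, 16% of the members against 3.66% of all genes called higher and 3.31% lower. The shares for CDDO-Im are near the background. The median member difference was 0.06, 0.1 and 0.14 for CDDO-Im, CDDO-Me and DMF, against -0.02 over all genes in each comparison. Above 0 were 18, 19 and 23 of the 25 members. Below 0 were 28%, 24% and 8% of the members, against 53.3%, 54.1% and 54.4% of all genes. The 3 comparisons share the DMSO arrays, so their values are given side by side and are not separate evidence.

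Most members differed little. In the 10-array comparison 20 of 25 members with CDDO-Im, 16 with CDDO-Me and 17 with DMF differed from DMSO by less than 0.25, against 73.8%, 75.7% and 76.1% of all genes. Only Dnajb9 with CDDO-Im, Dnajb9 and Ern1 with CDDO-Me, and Dnajb9, Hspa5 and Herpud1 with DMF passed 0.5 in size among the members. Of all genes 7.74%, 6.75% and 5.48% did. With DMF, 12 members had every treated array above both DMSO arrays, where 15.4% of all genes did, and 0 had every treated array below them, where 21.7% of all genes did. With CDDO-Me these counts were 7 (16.9% of all genes) and 3 (21.8%), and with CDDO-Im 6 (21.6%) and 2 (26.3%).

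**Figure D3:**
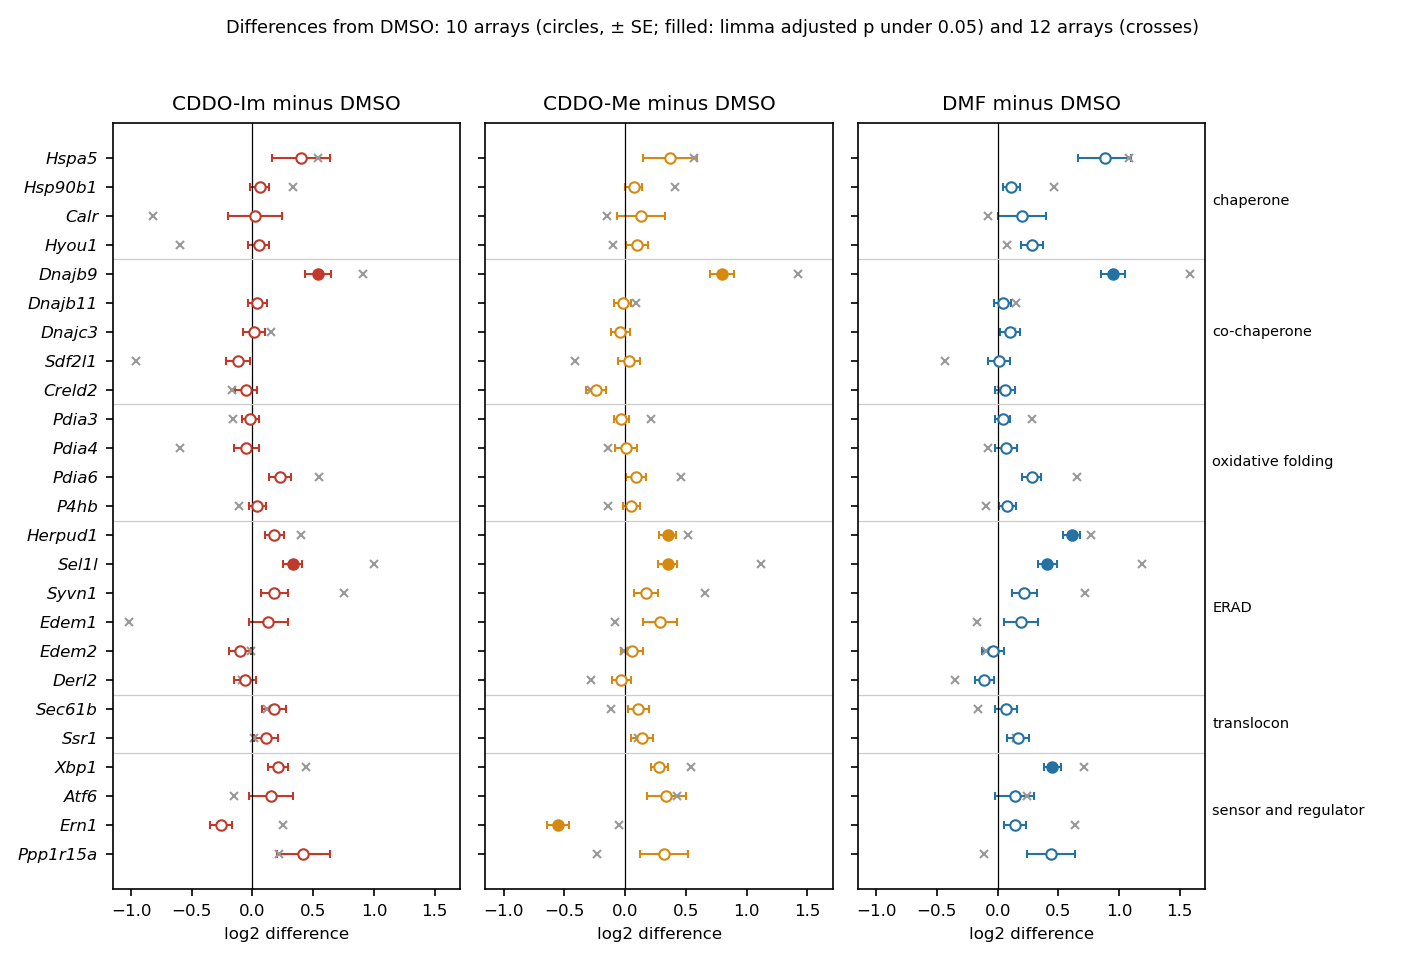
Log2 difference from DMSO of the 25 tested members for each compound, grouped by role, with 10 arrays (circles ± SE, filled where limma's adjusted p is under 0.05) and with 12 arrays (crosses). The filled points are Dnajb9 in all 3 panels, Sel1l in all 3, Herpud1 in 2, Xbp1 with DMF and Ern1 with CDDO-Me.

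None of the 4 tested chaperones passed the test with 12 or with 10 arrays, and for Hspa5 this depended on the setting. The only Hspa5 probe was dim, with log2 signals of 6.05 to 8.37, against 12.05 to 13.44 for Hsp90b1, which limits what it can say. Hspa5 encodes BiP, the ER member of the HSP70 family, which binds unfolded chains and holds the sensors inactive. Its log2 signal was 7.04, 6.87 and 7.85 with CDDO-Im, 7.14, 7.6 and 7.77 with CDDO-Me and 7.48, 8.18 and 8.37 with DMF, against 6.05, 7.17 and 6.93 with DMSO. All 3 DMF arrays lay above all 3 DMSO arrays, whereas the CDDO-Im and CDDO-Me arrays overlapped them. The DMF difference was 1.08 ± 0.27 with 12 arrays (limma adjusted p = 0.277) and 0.88 ± 0.22 with 10 (adjusted p = 0.0526, a fold of 1.84), just outside the threshold. It was 0.4 ± 0.24 with CDDO-Im and 0.37 ± 0.22 with CDDO-Me with 10 arrays (limma adjusted p = 0.375 and 0.362).

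The Hspa5 values differed by chip, that is, by which of the 2 BeadChips an array was on. On chip 1, with 1 array a group once the 2 arrays were removed, the difference from DMSO was -0.13 with CDDO-Im, -0.03 with CDDO-Me and 0.32 with DMF. On chip 2 it was 0.93, 0.76 and 1.35. With DMSO replicate 2, the chip 1 control, left out of the 10 arrays, the Hspa5 difference was 0.88, 0.82 and 1.33. With DMSO replicate 3, the chip 2 control, left out instead, it was -0.08, -0.14 and 0.37. Either way a single DMSO array is left, so these are effect sizes only. Array weights, used in place of leaving arrays out, counted those that stood apart less. They also gave DMSO replicate 2 a weight of 0.535 and DMSO replicate 3 one of 4.78, so the weighted control rested mostly on replicate 3. With these weights Hspa5 was called in all 3 comparisons, by 0.78, 0.67 and 1.17 (limma adjusted p = 0.00231, 0.00509 and 0.000321). With DMF on 10 arrays it was called in the authors' matrix (0.44, adjusted p = 0.0181), without background correction (0.66, 0.0106) and with an intensity trend (0.88, 0.00496) by limma. It was not called by limma with cyclic loess in place of quantile normalization (0.9, adjusted p = 0.0521) or with no chip term (0.97, 0.109). The part of the chip in this result was not tested.

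Hsp90b1, the ER member of the HSP90 family, had 13.42, 12.91 and 13.31 with CDDO-Im, 13.33, 13.33 and 13.44 with CDDO-Me and 13.43, 13.41 and 13.41 with DMF, against 12.05, 13.28 and 13.32 with DMSO. Apart from the low CDDO-Im replicate 2 and DMSO replicate 1, all values lay within 13.28 to 13.44. The 10-array differences were 0.06 ± 0.08, 0.07 ± 0.07 and 0.11 ± 0.07 (95% intervals -0.11 to 0.24, -0.1 to 0.23 and -0.05 to 0.28). With 12 arrays the differences were 0.33, 0.41 and 0.46, each with an SE of 0.3 or 0.31. Calr, the soluble lectin chaperone calreticulin, differed by 0.02 ± 0.22, 0.13 ± 0.2 and 0.2 ± 0.2 with 10 arrays, and by -0.82 ± 0.46 with CDDO-Im with 12. Hyou1, a large HSP70-related chaperone that exchanges the nucleotide of BiP, differed by 0.05 ± 0.09 with CDDO-Im, 0.1 ± 0.09 with CDDO-Me and 0.28 ± 0.09 with DMF (limma adjusted p = 0.102). The DMF arrays were above DMSO only without DMSO replicate 1, which had the highest DMSO value, 9.27, and the 12-array DMF difference was 0.08 ± 0.36.

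Among the co-chaperones 1 of 5 tested members was called, in all 3 comparisons with 10 arrays. Dnajb9 (ERdj4) is a DnaJ partner of BiP that helps to send misfolded proteins to ERAD and is a known target of spliced XBP1. Its log2 signal was 9.77, 8.62 and 9.79 with CDDO-Im, 9.99, 9.96 and 10.13 with CDDO-Me and 10.2, 10.12 and 10.24 with DMF, against 6.98, 9.37 and 9.09 with DMSO. Without the low replicate of CDDO-Im, all treated arrays were above all DMSO arrays. With 10 arrays the difference was 0.54 ± 0.11 with CDDO-Im (limma adjusted p = 0.0175), 0.8 ± 0.1 with CDDO-Me (0.00178) and 0.95 ± 0.1 with DMF (0.00144), which are folds of 1.45, 1.74 and 1.93. With 12 arrays it was 0.91 ± 0.53, 1.42 ± 0.55 and 1.58 ± 0.55, larger but not called (limma adjusted p = 0.443, 0.58 and 0.637).

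Dnajb9 had the same direction on each chip. The difference was 0.39 on chip 1 and 0.69 on chip 2 with CDDO-Im, 0.61 and 0.95 with CDDO-Me, and 0.81 and 1.08 with DMF. A dimmer second Dnajb9 probe gave 0.54 ± 0.17 with CDDO-Im (limma adjusted p = 0.104), 0.87 ± 0.16 with CDDO-Me (0.0126) and 0.97 ± 0.16 with DMF (0.0122). With 10 arrays the other co-chaperones stayed within 0.25 of DMSO. Dnajb11 (ERdj3) and Dnajc3 (p58IPK), further DnaJ partners of BiP, ranged from -0.04 to 0.1. Sdf2l1, which works with Dnajb11, differed by -0.12, 0.03 and 0.01 with 10 arrays, against -0.96, -0.41 and -0.43 with 12, where DMSO replicate 1 was high. Creld2, a secreted ER stress protein, differed by -0.24 ± 0.08 with CDDO-Me (limma adjusted p = 0.131, all 3 arrays below DMSO) and by -0.05 and 0.06 with CDDO-Im and DMF.

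**Figure D4:**
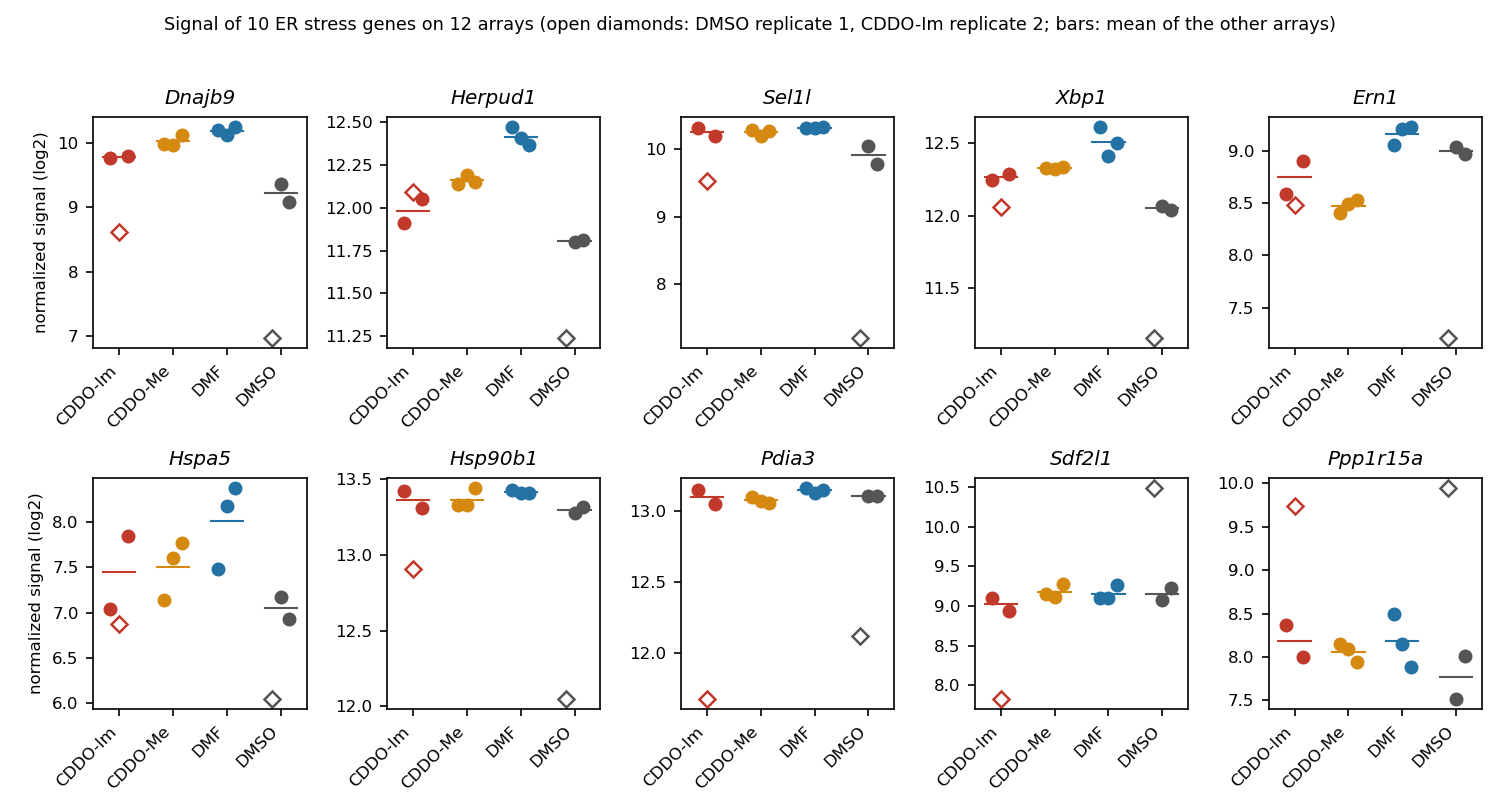
Normalized log2 signal of 10 members on each of the 12 arrays, by group, with CDDO-Im replicate 2 and DMSO replicate 1 as open diamonds and the mean of the other arrays as a bar. Dnajb9, Herpud1 and Xbp1 stand above DMSO in every treated group once the diamonds are set aside, Ern1 is lowest with CDDO-Me, and Sdf2l1 and Ppp1r15a are high on DMSO replicate 1.

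None of the 4 tested enzymes of oxidative folding was called with 12 or 10 arrays. Pdia3, Pdia4, Pdia6 and P4hb are protein disulfide isomerases, which make and rearrange disulfide bonds. Pdia6 had the largest differences of the 4, 0.23 ± 0.09 with CDDO-Im, 0.09 ± 0.08 with CDDO-Me and 0.28 ± 0.08 with DMF (limma adjusted p = 0.156, 0.582 and 0.0796, 10 arrays), and 0.55, 0.46 and 0.65 with 12 arrays, where DMSO replicate 1 was low. The other 3 lay between -0.05 and 0.08 in all 3 comparisons, with SE of 0.06 to 0.1. At an unadjusted p under 0.05, Pdia6 was higher with CDDO-Im and with DMF, and no other enzyme passed in the 10-array comparison.

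ERAD held 2 of the called members out of 6 tested. Herpud1 encodes HERP, an ER membrane protein that brings together the retrotranslocation complex and is strongly induced by ER stress in mammalian cells. Its log2 signal was 11.91, 12.09 and 12.05 with CDDO-Im, 12.14, 12.19 and 12.15 with CDDO-Me and 12.47, 12.41 and 12.37 with DMF, against 11.24, 11.8 and 11.81 with DMSO. On this brighter of its probes no treated array overlapped DMSO, even with all 12 arrays, and the 3 DMF arrays were above every other array. With 10 arrays the difference was 0.18 ± 0.08 with CDDO-Im (limma adjusted p = 0.23), 0.35 ± 0.07 with CDDO-Me (0.0213) and 0.61 ± 0.07 with DMF (0.00326). With 12 arrays it was 0.4 ± 0.17, 0.52 ± 0.18 and 0.77 ± 0.18 (limma adjusted p = 0.384, 0.465 and 0.199).

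The direction was the same on each chip, 0.11 and 0.25 with CDDO-Im, 0.34 and 0.36 with CDDO-Me and 0.67 and 0.58 with DMF on chips 1 and 2. The second Herpud1 probe gave 0.21 ± 0.1, 0.43 ± 0.09 and 0.67 ± 0.09 (limma adjusted p = 0.257, 0.0241 and 0.00564). On that probe CDDO-Im replicate 2 (10.7) lay below DMSO replicates 2 and 3 (11.11 and 10.75). Without DMSO replicate 1 but with CDDO-Im replicate 2 kept, Herpud1 with DMF was the only member called in any comparison. Herpud1 is also the member whose printed promoter holds both an ERSE-II and an amino acid response element match.

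Sel1l, the scaffold of the HRD1 ubiquitin ligase, had 10.31, 9.53 and 10.19 with CDDO-Im, 10.28, 10.2 and 10.27 with CDDO-Me and 10.31, 10.31 and 10.32 with DMF, against 7.21, 10.04 and 9.78 with DMSO. Apart from CDDO-Im replicate 2, which lay below DMSO replicates 2 and 3, the treated arrays were nearly level, and DMSO replicate 1 was far below all others. The 10-array difference was 0.33 ± 0.08 with CDDO-Im (limma adjusted p = 0.0499), 0.35 ± 0.08 with CDDO-Me (0.0289) and 0.41 ± 0.08 with DMF (0.0212), and the CDDO-Im call is at the threshold. With 12 arrays it was 1 ± 0.59, 1.12 ± 0.61 and 1.19 ± 0.61 (limma adjusted p = 0.446, 0.744 and 0.679), folds of 2, 2.17 and 2.28, against 1.26, 1.27 and 1.33 with 10. A second Sel1l probe gave 0.59 ± 0.13, 0.36 ± 0.12 and 0.63 ± 0.12 (limma adjusted p = 0.0284, 0.108 and 0.021), and another, dim probe gave -0.02, -0.04 and -0.02. Leaving out DMSO replicate 3 from the 10 arrays ended the Sel1l call in all 3 comparisons.

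The other ERAD members were not called. Syvn1, which encodes the HRD1 ligase itself, differed by 0.18 ± 0.11, 0.17 ± 0.1 and 0.22 ± 0.1. Edem1, a mannosidase-like protein that selects glycoproteins for degradation, differed by 0.13 ± 0.16, 0.29 ± 0.14 and 0.19 ± 0.14, and with 12 arrays by -1.02 ± 0.59 with CDDO-Im, where replicate 2 was far low. Edem2, of the same family, lay between -0.1 and 0.06, and its 3 other tested probes gave -0.13 to 0.35 without a call. Derl2, a Derlin of the retrotranslocation channel, lay between -0.11 and -0.03. Of the translocon, through which new proteins enter the ER, Sec61b differed by 0.18 ± 0.1, 0.11 ± 0.09 and 0.07 ± 0.09, and Ssr1, a subunit of the associated TRAP complex, by 0.11 ± 0.1, 0.14 ± 0.09 and 0.17 ± 0.09 (CDDO-Im, CDDO-Me and DMF, 10 arrays). The second Sec61b probe gave -0.19, -0.09 and 0.02, and a second Ssr1 probe gave 0.14, 0.55 ± 0.16 and 0.29. With CDDO-Me that Ssr1 probe was above DMSO on all 3 arrays, also with all 12 kept, without a call (limma adjusted p = 0.0782).

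Among the sensors and regulators, Xbp1 was called with DMF and Ern1 with CDDO-Me, in opposite directions. Xbp1 is the transcription factor whose mRNA IRE1 splices, and the array measures its mRNA in all and not the spliced form. Its log2 signal was 12.25, 12.06 and 12.29 with CDDO-Im, 12.33, 12.32 and 12.34 with CDDO-Me and 12.61, 12.41 and 12.5 with DMF, against 11.16, 12.07 and 12.04 with DMSO. The CDDO-Me and DMF arrays were all above DMSO, and CDDO-Im replicate 2 lay just under the highest DMSO array. The 10-array difference was 0.21 ± 0.08 with CDDO-Im (limma adjusted p = 0.15), 0.28 ± 0.07 with CDDO-Me (0.0517) and 0.45 ± 0.07 with DMF (0.0108), and on chips 1 and 2 it was 0.18 and 0.25, 0.26 and 0.28, and 0.53 and 0.41. With 12 arrays it was 0.44 ± 0.23, 0.54 ± 0.24 and 0.71 ± 0.24 (limma adjusted p = 0.421, 0.694 and 0.604).

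Ern1 encodes IRE1. Its brightest probe had 8.59, 8.48 and 8.91 with CDDO-Im, 8.41, 8.49 and 8.53 with CDDO-Me and 9.06, 9.21 and 9.23 with DMF, against 7.21, 9.04 and 8.97 with DMSO. Without DMSO replicate 1 the CDDO-Me arrays were all below DMSO and the DMF arrays all above it. The 10-array difference was -0.26 ± 0.09 with CDDO-Im (limma adjusted p = 0.149), -0.55 ± 0.09 with CDDO-Me (0.00678) and 0.14 ± 0.09 with DMF (0.387). With 12 arrays it was 0.25 ± 0.38, -0.05 ± 0.39 and 0.64 ± 0.39, so that for CDDO-Im the sign depends on DMSO replicate 1. A pair of dim Ern1 probes gave -0.57 ± 0.23 and -0.31 ± 0.2 with CDDO-Me (limma adjusted p = 0.177 and 0.408) and -0.22 and -0.15 with DMF, where the brightest probe had the opposite sign.

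Ppp1r15a encodes GADD34, which lets translation resume by bringing a phosphatase to eIF2α. It had 8.37, 9.74 and 8 with CDDO-Im, 8.15, 8.09 and 7.94 with CDDO-Me and 8.5, 8.15 and 7.89 with DMF, against 9.94, 7.52 and 8.01 with DMSO. The 2 highest values were those of the arrays that stood apart, and the groups overlapped. The 10-array difference was 0.42 ± 0.22, 0.32 ± 0.2 and 0.44 ± 0.2 (limma adjusted p = 0.297, 0.387 and 0.227). It came from chip 1, where the differences were 0.85, 0.64 and 0.98, while those on chip 2 were 0, 0.01 and 0.01. Atf6, whose brighter probe was dim and was detected on 10 of 12 arrays, differed by 0.15 ± 0.18, 0.34 ± 0.16 and 0.14 ± 0.16 with no call.

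The called members lay on both sides of the ERSE search. Of the 11 with a match, 9 were tested, and with 10 arrays limma called 0 of them with CDDO-Im (1 higher at an unadjusted p under 0.05), 1 with CDDO-Me and 1 with DMF, each time Herpud1. Their median difference was 0.06, 0.09 and 0.2. Of the 16 with a promoter in the table and no match, 14 were tested, with 2, 2 and 3 called higher, 1 called lower with CDDO-Me, and medians of 0.08, 0.08 and 0.11. With 12 arrays, where none was called, the medians were 0.33, 0.41 and 0.46 with a match and 0, -0.06 and -0.09 without one, so the medians lay further apart with the arrays that stood apart kept than without them.

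The doses of the 3 compounds differ, so a difference among them describes these treatments and not the compounds as such. With 12 arrays limma's F test among CDDO-Im, CDDO-Me and DMF called 0 of 25 members (0 at an unadjusted p under 0.05), and 0% of all genes. With 10 arrays it called 2, Herpud1 (adjusted p = 0.0432) and Ern1 (adjusted p = 0.00902), against 2.92% of all genes. Herpud1 was lower with CDDO-Im than with DMF by -0.43 ± 0.07 (limma adjusted p = 0.0368), and the CDDO-Me minus DMF difference was -0.25 (0.0861). Ern1 was lower with CDDO-Me than with DMF by -0.68 ± 0.08 (limma adjusted p = 0.00338), and the CDDO-Im minus DMF difference was -0.39 ± 0.09 (0.0878). Between the triterpenoids limma called 0 of 25 members (3 at an unadjusted p under 0.05, 10 arrays); CDDO-Im minus CDDO-Me ran from -0.25 (Dnajb9, SE 0.1) to 0.29 (Ern1, SE 0.09, limma adjusted p = 0.461). Sel1l was nearly level among the 3, with differences of -0.02, -0.08 and -0.06 (SE 0.08).

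Genes of the PERK and ATF4 branch, Atf4 itself among them, were measured from a list of 17, of which 16 were tested. With 12 arrays 3 of them were called higher and 0 lower in each comparison, and with 10 arrays 4 were higher with CDDO-Im, 4 with CDDO-Me and 5 with DMF. Of all genes 1.29%, 0.856% and 0.312% were called higher with 12 arrays, and 5.27%, 5.11% and 3.66% with 10. Trib3, a pseudokinase induced by ATF4 and CHOP, had 9.84, 10.44 and 9.77 with CDDO-Im, 10.02, 10.08 and 10 with CDDO-Me and 10.47, 10.31 and 10.19 with DMF, against 8.16, 8.45 and 8.42 with DMSO. All 9 treated arrays were above all 3 DMSO arrays, including those that stood apart. The 12-array difference was 1.67 ± 0.19 with CDDO-Im (limma adjusted p = 0.00219), 1.73 ± 0.2 with CDDO-Me (0.00238) and 2.01 ± 0.2 with DMF (0.00185).

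Chac1, which breaks down glutathione and is an ATF4 target, had 11.41, 11.64 and 11.42 with CDDO-Im, 11.7, 11.5 and 11.68 with CDDO-Me and 12.02, 11.9 and 11.9 with DMF, against 10.13, 10.42 and 10.42 with DMSO. It was higher by 1.17 ± 0.15, 1.32 ± 0.16 and 1.63 ± 0.16 with 12 arrays (limma adjusted p = 0.00451, 0.00297 and 0.00179), again with no overlap. Another list gene, Slc7a11, the cystine transporter subunit, was higher by 3.83 ± 0.17, 3.72 ± 0.18 and 3.39 ± 0.18 and is also an NRF2 target. Cebpb was called with all compounds (0.67, 0.64 and 0.5) and Nupr1 with DMF (0.59 ± 0.09) in the 10-array comparison only. Ddit3, the gene of CHOP, was not called: it had 7.87, 9.23 and 7.78 with CDDO-Im, 8.1, 8.16 and 7.67 with CDDO-Me and 8.58, 8.52 and 8.23 with DMF, against 10.03, 7.68 and 8.1 with DMSO. Its highest values were again on DMSO replicate 1 and CDDO-Im replicate 2. The 10-array Ddit3 difference was -0.06 ± 0.2 with CDDO-Im, 0.09 ± 0.19 with CDDO-Me and 0.56 ± 0.19 with DMF (limma adjusted p = 0.901, 0.818 and 0.12). Atf4 mRNA differed by 0.33 ± 0.1, 0.23 ± 0.09 and 0.36 ± 0.09 with 10 arrays (limma adjusted p = 0.0748, 0.151 and 0.0511). Asns, Sesn2, Ddit4 and Vldlr of the same list were called in no comparison. Asns differed by 0.13 ± 0.09, 0.09 ± 0.09 and 0.2 ± 0.09 with 10 arrays (limma adjusted p = 0.482, 0.591 and 0.213).

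**Figure D5:**
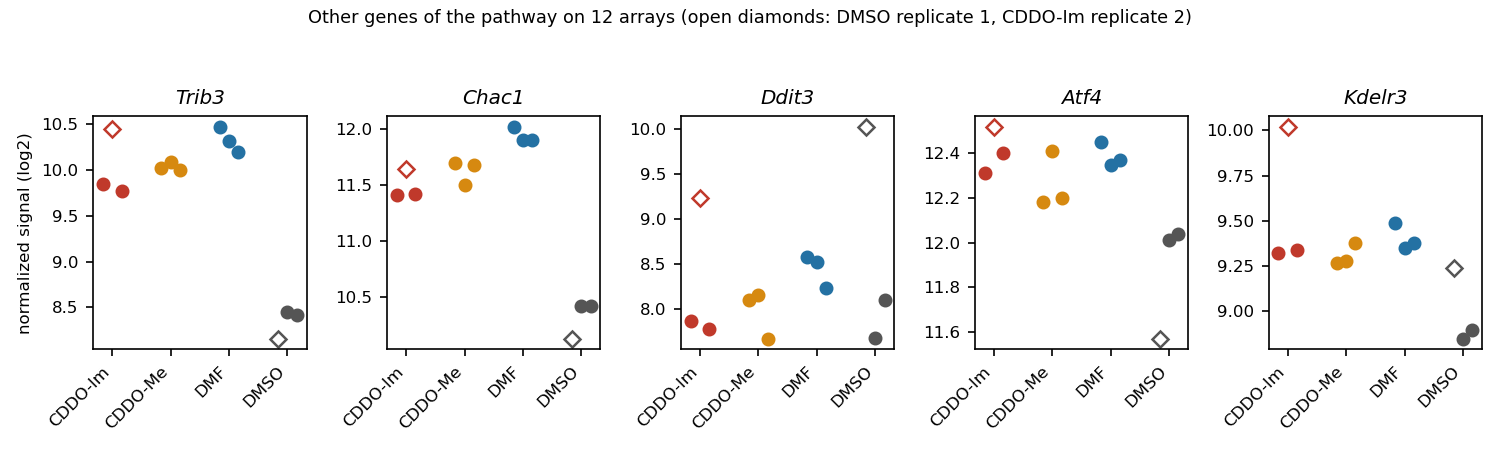
Normalized log2 signal on each of the 12 arrays for Trib3, Chac1, Ddit3, Atf4 and Kdelr3, by group, with CDDO-Im replicate 2 and DMSO replicate 1 as open diamonds. Trib3 and Chac1 separate all treated arrays from all DMSO arrays, whereas the Ddit3 groups overlap and its highest value, 10.03, is on DMSO replicate 1.

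The rest of the ER machinery outside the module differed little. Of 24 other tested folding enzymes and co-chaperones, limma called 0 with 12 arrays (2 higher with CDDO-Im, 1 with CDDO-Me and 0 with DMF at an unadjusted p under 0.05), and with 10 Fkbp14, a prolyl isomerase, was called with CDDO-Im (0.35 ± 0.08, limma adjusted p = 0.0308) and CDDO-Me (0.29 ± 0.07, 0.0404) but not with DMF (0.22 ± 0.07, 0.109). Of 19 genes of ER export and KDEL retrieval, Kdelr3, a receptor that returns escaped ER proteins, was called with 10 arrays in each comparison, by 0.45 ± 0.08, 0.43 ± 0.07 and 0.52 ± 0.07 (limma adjusted p = 0.0123, 0.00942 and 0.00645), and by 0.56, 0.36 and 0.45 without a call with 12 (0.315, 0.744 and 0.679). Its levels were 9.32, 10.02 and 9.34 with CDDO-Im, 9.27, 9.28 and 9.38 with CDDO-Me and 9.49, 9.35 and 9.38 with DMF, against 9.24, 8.85 and 8.9 with DMSO, so all treated arrays lay above DMSO. With 10 arrays 5.27%, 5.11% and 3.66% of all genes were called higher, so 1 call in a list of 19 or 24 genes is near that background. Lists of 10 further sensors and transcription factors, 23 translocon and signal recognition genes, 22 N-glycosylation genes and 19 further ERAD genes had 0 calls with 12 and with 10 arrays by limma. At an unadjusted p under 0.05, 6, 7 and 10 of these 74 genes were higher and 3 were lower in each comparison with 10 arrays, and with 12 arrays 4, 1 and 2 were higher and 1, 0 and 0 lower. Their 10-array medians lay between -0.02 and 0.09.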

How the data were processed

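The intensity values were deposited as mean bead signals per probe, exported without normalization from the Gene Expression module of GenomeStudio (1.9.0), per the file headers. The authors' detection p-value per probe and array and the deposited number of beads behind each signal came from the same reports. A deposited matrix of intensity values, whose normalization by the authors is not given in the sources used here, served only as an alternative. The design text of the series assigns 0.1 µM to CDDO-Im, but sample titles and the treatment protocol assign that dose to CDDO-Me, as done here.

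Signals were corrected with limma's normexp method by detection p (offset 16), quantile normalized and log2 transformed. Those probes whose detection p was under 0.05 on at least 3 arrays were fitted with limma (version 3.58.1 in R 4.3.3) with group and chip as terms, 19211 probes of 13441 genes with 12 arrays (7 residual degrees of freedom, 2.83 prior) and 18973 probes of 13277 genes with 10 (5 and 3.02). Tests were two-sided, with Benjamini-Hochberg adjustment over all probes and calls at an adjusted p under 0.05. The code was tested on simulated data.

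The members and lists were chosen with earlier results of these data known. All members are accounted for. Values per array are given for members called with 12 arrays or among the 10 smallest adjusted p-values with 10, and for Hspa5, Hsp90b1, Xbp1, Dnajb9 and Ppp1r15a in any case, and from each pathway list up to 3 called genes per comparison are named. Ddit3, Atf4, Cebpb, Nupr1, Asns, Sesn2, Ddit4 and Vldlr were added after their values were seen. Promoters are from RefSeq.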

Additional observations from a re-analysis of the deposited data

How the results depend on the processing

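The call of 0 members with 12 arrays rests on the arrays kept and their weights. With 10 arrays 2, 4 and 4 members were called for CDDO-Im, CDDO-Me and DMF and 2 among the compounds. Array weights gave DMSO replicate 1 a weight of 0.0326 and CDDO-Im replicate 2 one of 0.0383. DMSO replicates 2 and 3 had 0.535 and 4.78, so the weighted control rested mostly on replicate 3. With these weights the counts were 7, 8 and 7, and 3 among the compounds. These are 28%, 32% and 28% of the members, 7, 6 and 7 of them higher, where 13.3%, 10.9% and 10.3% of all genes were called higher and 14.6%, 14% and 13.5% lower, and 7.61% among the compounds. The authors' matrix called 1 member (4%) for DMF, Herpud1, where 0.491% of all genes were called higher and 0.0818% lower. The CDDO-Me median of -0.01 was 0.32 with median scaling, 0.16 with chip as a random block and 0.24 within chip 1, and the DMF median was 0.29 with median scaling. Leaving out 1 of 12 arrays gave 0 to 1 called members in each comparison and 0 to 0 among the compounds, with medians of 0.03 to 0.15 for CDDO-Im, -0.02 to 0.13 for CDDO-Me and 0.11 to 0.17 for DMF. The single calls were Hspa5 without DMSO replicate 2, in all 3 comparisons, and Herpud1 with DMF without DMSO replicate 1. Of all genes 1.51%, 0.904% and 0.331% were called higher in the former 3 and 0.645% in the latter. The causes were not tested.

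With 10 arrays, alternatives chosen after seeing the data called 4 members (16%) for CDDO-Im with the authors' matrix, where 7.06% of all genes were called higher and 7% lower. With no chip term 1 member (4%) was called, against 4.73% of all genes higher and 3.62% lower. Among the compounds 5 members were called with the authors' matrix and 5 with an intensity trend, without a count of all genes. Leaving out 1 more array gave medians of 0.02 to 0.1, 0.04 to 0.11 and 0.09 to 0.19 for CDDO-Im, CDDO-Me and DMF. Where that array was of CDDO-Me or DMF, 4% of the members were called for CDDO-Im, 8% to 16% for CDDO-Me and 12% to 16% for DMF. Of all genes 4.34% to 5%, 3.48% to 4.91% and 2.25% to 3.27% were called higher there. Called lower were 2.91% to 3.96%, 2.47% to 4.51% and 1.32% to 2.85%, so the CDDO-Im share is near the background. Over 16 such alternatives Dnajb9 stayed called in 13 for CDDO-Im and in 16 for CDDO-Me and for DMF, Herpud1 in 11 for CDDO-Me and 16 for DMF, Ern1 in 16 for CDDO-Me, Xbp1 in 15 for DMF, and Sel1l in 5, 8 and 12. Those 16 include the fits without CDDO-Im replicate 1 or 3 and without DMSO replicate 2 or 3. These leave a lone array in a group, which is assumed to vary like the other groups, so they give effect sizes only. The count for CDDO-Me was 2 without any 1 of its replicates, Dnajb9 higher and Ern1 lower. There 3.48% to 3.69% of all genes were called higher and 2.47% to 3.19% lower. In the fit with the replicate number as a block in place of chip, 0 members were called in each comparison with 12 arrays and the CDDO-Im median was 0.03. With 10 arrays this block called 2, 4 and 4 members and 1 among the compounds. Of all genes 4.31%, 4.72% and 4.04% were called higher and 3.1%, 4.44% and 3.5% lower. Hspa5 was called in all 3 comparisons (0.74, 0.69 and 1.2) and Sel1l in none, and the other calls were kept. The deviations of same-numbered arrays correlated above 0.1 in all 6 pairs of replicate 3 (0.148 to 0.364), whose arrays are all on chip 2. Differently numbered pairs on chip 2 had -0.00873 to 0.0949, with 0 of 6 above 0.1, and those on chip 1 had -0.233 to 0.295, with 2 of 6 above it. Of the same-numbered pairs, 3 of 6 for replicate 1 and 1 of 6 for replicate 2 were above 0.1. The numbers were not taken to pair the samples, and whether the samples were paired was not tested. No member changed sign with a call when each alternative was set against the main fit of the same 12 or 10 arrays. Between those main fits some uncalled members differed in sign, such as Ppp1r15a with CDDO-Me (-0.23 with 12 arrays and 0.32 with 10). Dim probes near background, such as those of Atf6, Eif2ak3 and Canx, limit what can be said of those genes.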

Other observations

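Genes outside the module with a log2 signal most like that of Hspa5 over the 12 arrays were Gmnn (Pearson's r = 0.945), 2410004B18Rik (0.944), Ktn1 (0.936), LOC100046503 (0.936) and 1110036D12Rik (0.936). Over the 10 arrays they were LOC100046825 (0.966), LOC638034 (0.962), Adam10 (0.96), Slc39a10 (0.948) and Rbm16 (0.947), and none of the first 5 is among them. The other tested members had a median r with Hspa5 of 0.342 over 12 arrays and 0.267 over 10, against -0.0373 and -0.0996 over all genes. Over the 10 arrays the members most like Hspa5 were Herpud1 (0.716), Dnajb9 (0.69) and Pdia6 (0.654). The points share chips and the low arrays, and the values are descriptions.

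Cytosolic heat shock genes outside the ER were called in small numbers with 10 arrays. Of 18 tested, 3 were higher with CDDO-Im, 2 with CDDO-Me and 1 with DMF, against 0 by limma with 12 arrays, where 3, 2 and 2 were higher at an unadjusted p under 0.05. With 10 arrays 5.27%, 5.11% and 3.66% of all genes were called higher, so the DMF count is near that background. Hspb8, a small heat shock protein, was higher by 0.99 ± 0.11, 1.04 ± 0.1 and 0.55 ± 0.1 (log2 difference ± SE), and Bag3, its HSP70 co-chaperone partner, by 0.59 ± 0.08 with CDDO-Im and 0.56 ± 0.07 with CDDO-Me. Of 22 genes of cholesterol and fatty acid synthesis, whose regulator SREBP is processed after leaving the ER, limma called 0 in each comparison with 12 arrays. With 10 arrays 4 were higher with DMF (Sc4mol by 0.83 ± 0.13, Scd2, Lss and Cyp51), where 3.66% of all genes were. With CDDO-Me 2 were lower (Insig1 by -0.9 ± 0.14 and Scd1 by -0.49 ± 0.12), where 4.73% of all genes were. With CDDO-Im 1 was higher (Me1 by 0.59 ± 0.14), which is near the 5.27% of all genes called higher. The difference between compounds in these genes was not tested.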
